A study of Drosophila melanogaster with 12 samples.

Results

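The expression of the Notch receptor gene, of its ligand genes and of the bHLH genes of the Enhancer of split complex was measured in the larval central nervous system (CNS) of Drosophila mutants that lack an insulator protein. These 10 genes were taken by their FlyBase symbols from the 17510 genes of the count tables. They are N (Notch), Dl (Delta), Ser (Serrate) and the E(spl) genes mgamma-HLH, mdelta-HLH, mbeta-HLH, m3-HLH, m5-HLH, m7-HLH and m8-HLH. All 10 were expressed above the filter on low counts in both experiments. Poly(A) RNA from larvae of the third instar was sequenced in strand-specific libraries, 3 per group. Each library pooled 60 dissected CNSs, so that variation between animals was not seen. CTCF0 mutants, which lack maternal as well as zygotic CTCF, were compared with WT larvae of the w1118 strain in 6 libraries sequenced as paired-end reads. Cp190KO mutants, which are transheterozygous for independent knockout alleles without the Cp190 open reading frame and may keep maternally supplied Cp190, were compared with their own w1118 control in 6 libraries sequenced as single-end reads on another instrument. The comparisons ask how the loss of each protein affects transcript levels in the CNS.

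Notch is a receptor on the cell surface that is activated by Delta or Serrate on a neighbouring cell. It is then cut by proteases, and its released intracellular part enters the nucleus, where it joins the DNA-binding protein Su(H) and the co-activator Mastermind to turn on target genes. The bHLH genes of the E(spl) complex are the classic targets. They encode repressors that recruit the co-repressor Groucho and hold down proneural genes. In the larval CNS, Notch signalling maintains neuroblasts, the neural stem cells of the fly, and separates the fates of sister neurons.

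The libraries held 11652548 to 21522453 gene counts. Levels are given as CPM, read counts relative to library size after TMM scaling, and a count of 3 was worth 0.139 to 0.257 CPM. The targeted gene CTCF was at 40.8 CPM in WT and 2.26 CPM in CTCF0 libraries (edgeR, log2 fold change -4.17 ± 0.24 SE, adjusted p = 6.486e-05). Cp190 did not tell the groups of the other experiment apart (log2 fold change -0.22 ± 0.29 SE, edgeR adjusted p = 0.81), and its mutant group is therefore called the libraries labelled Cp190KO. Replicate 3 of these held 375 genes with 1 to 3 counts, where the other 11 libraries held 1738 to 2199. Markers of neuroblasts, neurons and glia were expressed in all groups, and 0 of the 4 listed for each cell type were called by edgeR in either mutant (unadjusted p under 0.05 for 0, 0 and 2 in CTCF0, and 0, 0 and 3 in libraries labelled Cp190KO). Of all genes tested, 2.81% were called in CTCF0 and 2.41% in the libraries labelled Cp190KO, and 12.1% and 13.1% had such an unadjusted p. The summed level of the 4 glial markers ranged from 308.7 to 389.9 CPM in WT and from 478.9 to 548.8 CPM in CTCF0 libraries. Against the other control (342.9 to 387.4 CPM) it ranged from 386.0 to 538.9 CPM in the libraries labelled Cp190KO. The glial markers differed in sign there, and the log2 fold change was 0.87 for alrm, 0.65 for moody, 0.25 for nrv2 and -0.38 for repo. In CTCF0 it was 0.86 for alrm, 1.05 for moody, 0.42 for nrv2 and 0.21 for repo. The mean of alrm went from 149.2 CPM in WT to 271 CPM in CTCF0, and that of repo from 120.7 to 139.6 CPM. In bulk RNA, fewer cells of a type and less RNA per cell cannot be told apart. The part of glial RNA in the values that follow was not tested. Among the listed markers of other larval tissues only Akh, a hormone gene of the ring gland, was called, in CTCF0 (log2 fold change 1.15, edgeR adjusted p = 0.0096). The summed level of the 4 ring gland markers was 11.9 to 259.8 CPM in the control of the Cp190KO experiment and 15.9 to 29.1 CPM in the libraries labelled Cp190KO. The high end of that control was replicate 3, with 139.6 CPM for phm and 102.9 CPM for sad. Replicates 1 and 2 of the control had 4.18 and 8.94 CPM for phm and 3.84 and 7.46 CPM for sad.

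The 7 bHLH genes lie on chromosome 3R of the dm6 genome, between 25997621 at the left end of E(spl)mdelta-HLH and 26041008 at the right end of E(spl)m8-HLH. They are short genes, with 769 to 1305 bp of exons, and no other annotated gene overlaps their exons. N lies on chromosome X from 3134870 to 3172221 on the plus strand and has 10150 bp of exons. Dl (3R, 19302731 to 19326217) and Ser (3R, 27172090 to 27194267) are both on the minus strand, with 5278 and 5831 bp of exons.

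Levels were compared between genes as CPM per kb of exon. In the WT libraries of the CTCF0 experiment, E(spl)mbeta-HLH had the highest level of the 10 (55.3 ± 8.4 CPM per kb, SD, n = 3). It was followed by E(spl)mgamma-HLH, known as a Notch target in neuroblasts, with 37.5 ± 3.5 CPM per kb. E(spl)m7-HLH stood at 27.7 CPM per kb, and the libraries of each of these genes lay wholly above those of the next. E(spl)m3-HLH (21.9 CPM per kb) and E(spl)m8-HLH (19.6 CPM per kb) overlapped each other, as did E(spl)m5-HLH (9.50 CPM per kb) and N (8.86 CPM per kb). The low end held E(spl)mdelta-HLH (3.45 CPM per kb) and Dl (2.67 CPM per kb), which overlapped, and Ser (1.10 CPM per kb), whose libraries lay below those of Dl.

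The WT control of the other experiment gave a similar order. E(spl)mbeta-HLH again came first with 81.0 ± 20.3 CPM per kb (SD, n = 3), well above the next gene, and E(spl)mgamma-HLH (24.9 CPM per kb), m3-HLH (20.1 CPM per kb), m7-HLH (18.9 CPM per kb) and m8-HLH (17.3 CPM per kb) formed a chain in which neighbours overlapped. Below them E(spl)m5-HLH (9.26 CPM per kb), N (3.25 CPM per kb), E(spl)mdelta-HLH (2.29 CPM per kb) and Dl (1.34 CPM per kb) followed without overlap, and Dl overlapped Ser (0.865 CPM per kb). Both mutants kept E(spl)mbeta-HLH first, at 57.2 CPM per kb in CTCF0 and 64.8 CPM per kb in libraries labelled Cp190KO. E(spl)mgamma-HLH was second in both, and Ser was last in all 4 groups.

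The controls themselves were not at the same level. As a share of its mean CPM in the first control, the second control held 36.7% for N, 50.03% for Dl, 66.4% for E(spl)mgamma-HLH and mdelta-HLH and 68.4% for m7-HLH, all without overlap of libraries. E(spl)mbeta-HLH was at 146.6%, also without overlap, while Ser (79.0%), m3-HLH (91.7%), m5-HLH (97.5%) and m8-HLH (88.6%) overlapped. Over 8949 genes, 42.7% did not overlap between the controls, with 30.1% lower and 12.6% higher in the second. TMM scaling was done within each experiment, so the CPM of the controls were not scaled to each other. Read layout and instrument differed between the experiments, and their part cannot be told apart from that of other differences between the controls. Each mutant was therefore compared only with its own control.

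Of the receptor and ligand genes, 0 of 3 were called in either mutant by edgeR (adjusted p under 0.05 and fold change over 1.5), where 2.81% of 8718 genes were called in CTCF0 and 2.41% of 8599 in the libraries labelled Cp190KO. At an unadjusted p under 0.05 the count was 0 in CTCF0 and 1, Ser, in the libraries labelled Cp190KO, and DESeq2 also called 0 in each. Under edgeR, 12.1% and 13.1% of all genes tested had such an unadjusted p.

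N, the receptor, was measured at 59.7, 118.5 and 91.6 CPM in WT replicates 1 to 3 and at 94.9, 44.7 and 108.5 CPM in CTCF0 replicates 1 to 3. CTCF0 replicate 2 was the lowest of the 6 and the remaining CTCF0 libraries lay within the WT range. The log2 fold change was -0.12 ± 0.35 (SE), with a 95% interval from -0.93 to 0.69 (edgeR adjusted p = 0.95). In the other experiment N stood at 37.3, 29.0 and 32.6 CPM in WT and at 58.9, 25.7 and 34.2 CPM in the libraries labelled Cp190KO. Replicate 1 of the mutant was the highest and replicate 2 the lowest of those 6, so the mutant group enclosed its control. The log2 fold change was 0.27 ± 0.31 (SE, interval -0.45 to 0.98, edgeR adjusted p = 0.79), and it became -0.13 when replicate 1 of the libraries labelled Cp190KO was left out.

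Dl, the main ligand of Notch in the nervous system, was measured at 11.5, 17.9 and 12.9 CPM in WT and at 20.2, 12.7 and 27.9 CPM in CTCF0. Replicates 1 and 3 of CTCF0 were above all WT libraries, while replicate 2 was among them. The mean was 143.7% of WT, with a log2 fold change of 0.53 ± 0.31 (SE, interval -0.18 to 1.24, edgeR adjusted p = 0.61). It ranged from 0.23 without CTCF0 replicate 3 to 0.73 without CTCF0 replicate 2, where the edgeR adjusted p was 0.069.

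In the Cp190KO experiment, Dl was at 8.76, 4.75 and 7.66 CPM in WT and at 21.5, 6.10 and 11.3 CPM in the libraries labelled Cp190KO. Here too replicates 1 and 3 of the mutant were above all WT libraries and replicate 2 was among them. The mean was 183.5% of WT, the highest share among the 10 genes in this comparison, but the libraries labelled Cp190KO differed from each other by 3.51-fold. The log2 fold change of 0.88 ± 0.48 (SE) had an interval from -0.24 to 1.99 (edgeR adjusted p = 0.53). It ranged from 0.31 without replicate 1 of the libraries labelled Cp190KO to 1.20 without their replicate 2, where the edgeR adjusted p was 0.075.

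Ser, the second ligand, was measured at 7.27, 6.12 and 5.77 CPM in WT and at 7.03, 3.26 and 6.17 CPM in CTCF0. The low library was again CTCF0 replicate 2, and the others lay within the WT range. The log2 fold change was -0.22 ± 0.30 (SE, interval -0.92 to 0.48, edgeR adjusted p = 0.89), and 0.01 without that library. In the Cp190KO experiment Ser was at 6.45, 3.57 and 5.11 CPM in WT and at 6.62, 8.26 and 11.6 CPM in the libraries labelled Cp190KO. All 3 mutant libraries were above all 3 WT libraries, although replicate 1 of each group lay close together. Ser had a log2 fold change of 0.80 ± 0.33 (SE, interval 0.03 to 1.58) with an unadjusted p of 0.044 and an edgeR adjusted p of 0.36. Without replicate 3 of the libraries labelled Cp190KO the log2 fold change was 0.56.

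**Figure D1:**
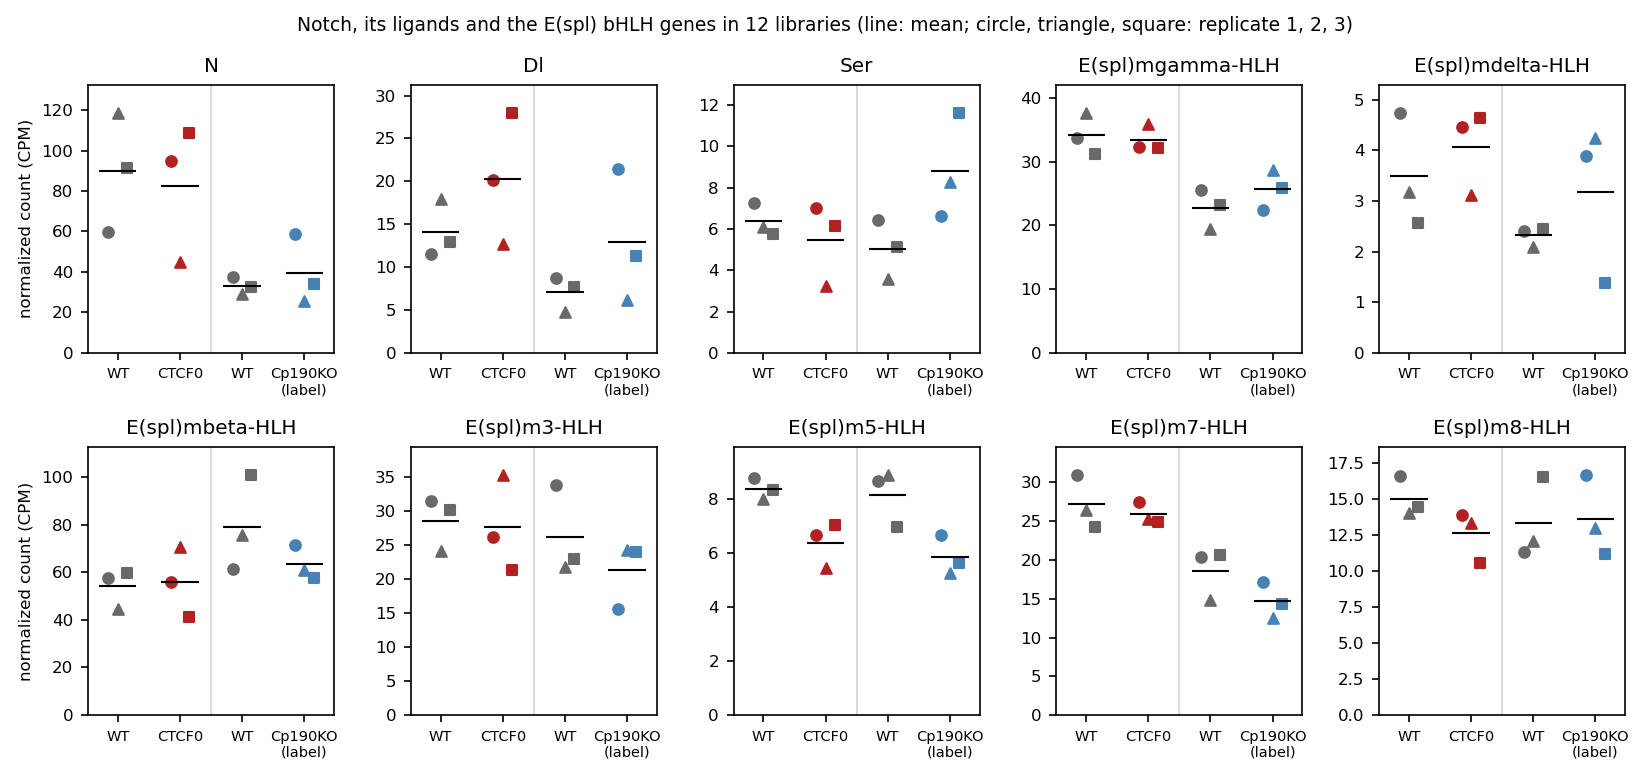
Level of each of the 10 genes in the 12 libraries, in CPM (TMM-scaled) on linear axes that start at 0. Points are libraries, with their shape giving the replicate, and lines are group means of 3. E(spl)m5-HLH is lower in all mutant libraries than in all WT libraries of the same experiment, and Ser is higher in all libraries labelled Cp190KO.

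The level of N was set beside that of long genes in general. For each library, the median log2 deviation of genes with over 6000 bp of exons was set against that of genes under 1500 bp (927 and 2553 genes in the CTCF0 experiment). This offset was lowest in CTCF0 replicate 2 (-0.64) and highest in CTCF0 replicate 3 (0.62), while WT libraries lay between -0.20 and 0.12. N was lowest in that CTCF0 replicate 2 and second highest in replicate 3, but it was highest in WT replicate 2, whose offset was 0.12. In the Cp190KO experiment the offset was 0.82, -0.83 and 0.33 in mutant replicates 1 to 3 and between -0.39 and 0.13 in WT. N had its highest level in the library with the highest offset and its lowest level in the library with the lowest. Over both experiments, N and the offset deviated to the same side in 9 of 12 libraries. They deviated to opposite sides in replicate 3 of both WT controls and in replicate 3 labelled Cp190KO. The bHLH genes are all among the short genes.

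The 4 neuron markers varied over the same libraries. Their summed level was 549.4, 720.6 and 530.9 CPM in WT and 623.6, 405.7 and 821.2 CPM in CTCF0, where replicate 2 was the lowest and replicate 3 the highest of the 6. In the other experiment it was 517.5, 324.4 and 447.2 CPM in WT and 917.6, 209.7 and 578.4 CPM in the libraries labelled Cp190KO, with replicate 1 the highest and replicate 2 the lowest. Of the 4 neuron markers, elav, Syt1 and brp are themselves long genes, with 10715, 7190 and 13371 bp of exons, while nSyb has 4072 bp. Their summed level therefore cannot tell the scatter with gene length and neuronal RNA apart. The part of the scatter with gene length and of neuronal RNA in the values of N, Dl and Ser was not tested.

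**Figure D2:**
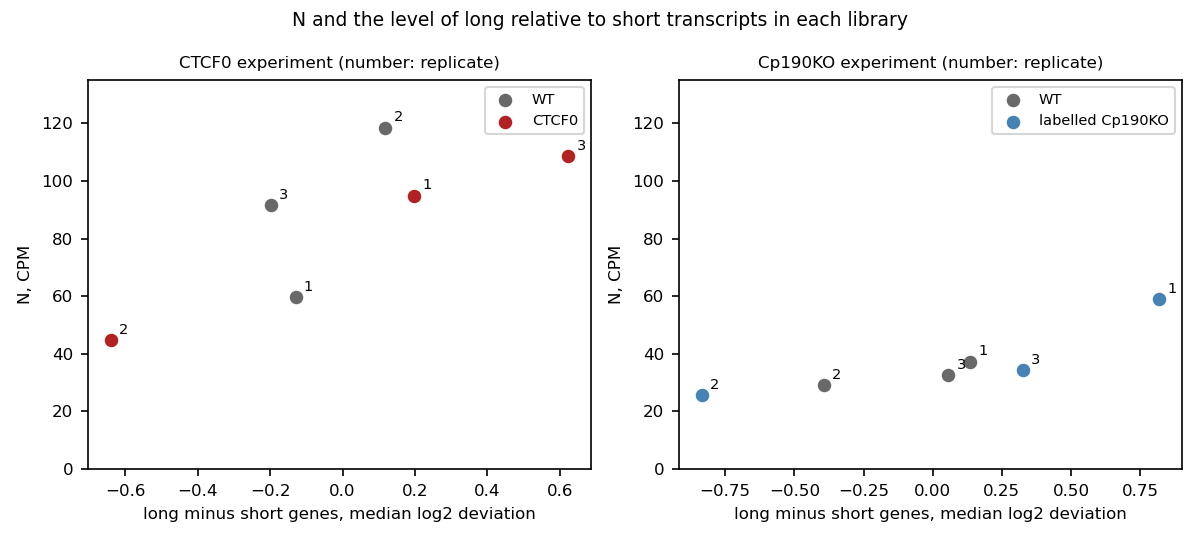
Level of N (CPM, vertical axis) against the median log2 deviation of long genes (over 6000 bp of exons) minus that of short genes (under 1500 bp) in each library. The left plot holds the CTCF0 experiment and the right plot the Cp190KO experiment, and numbers beside points are replicates. Mutant replicate 2 is at the lower left of both plots, and replicate 1 labelled Cp190KO is at the upper right with 58.9 CPM, while WT replicate 2 of the CTCF0 experiment has the highest N, 118.5 CPM, at an offset of 0.12.

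Of the E(spl) bHLH genes, 0 of 7 were called in either mutant by edgeR, 0 of 7 had an unadjusted p under 0.05 in either, and DESeq2 called 0 of 7. Over all genes tested, edgeR called 2.81% in CTCF0 and 2.41% in the libraries labelled Cp190KO. An unadjusted p under 0.05 was found for 12.1% and 13.1% of them. The median log2 fold change of the 7 was -0.05 in CTCF0 and -0.30 in the libraries labelled Cp190KO, where the medians over all genes tested were 0.01 and 0.08. The log2 fold change was below 0 for 5 of 7 in CTCF0 and for 4 of 7 in the libraries labelled Cp190KO, against 48.8% and 41.5% of all genes. Their summed level was 170.9 ± 12.9 CPM (SD, n = 3) in WT and 165.9 ± 23.8 CPM in CTCF0, with overlapping libraries. It was 170.5 ± 20.4 CPM in the other control and 147.6 ± 6.9 CPM in the libraries labelled Cp190KO. There the highest mutant library, with 153.6 CPM, was just below the lowest WT library, with 154.4 CPM. The mean of E(spl)mbeta-HLH, whose libraries overlapped, went from 79.2 to 63.3 CPM in that experiment. For E(spl)mgamma-HLH, mdelta-HLH and m8-HLH the log2 fold change was above 0.

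E(spl)mgamma-HLH was measured at 33.7, 37.6 and 31.2 CPM in WT and at 32.2, 35.9 and 32.1 CPM in CTCF0. The groups overlapped and their means were close. The log2 fold change was -0.03 ± 0.16 (SE), and its interval from -0.39 to 0.33 was the narrowest of the 10. With the libraries labelled Cp190KO it was at 25.5, 19.4 and 23.1 CPM in WT and at 22.4, 28.6 and 25.9 CPM in the libraries labelled Cp190KO. These overlapped too, with a log2 fold change of 0.18 ± 0.20 (SE, interval -0.29 to 0.64).

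E(spl)mdelta-HLH, its left neighbour and the gene with the fewest counts of the bHLH genes (25 to 84 per library), was measured at 4.74, 3.19 and 2.56 CPM in WT and at 4.46, 3.12 and 4.64 CPM in CTCF0. The groups overlapped throughout (log2 fold change 0.21 ± 0.30 SE). The second control held it at 2.41, 2.10 and 2.46 CPM, and it was at 3.90, 4.25 and 1.38 CPM in the libraries labelled Cp190KO. Replicates 1 and 2 of the mutant were above and replicate 3 below all WT libraries, which gave a log2 fold change of 0.45 ± 0.45 (SE).

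E(spl)mbeta-HLH, the most abundant per length, was at 57.7, 44.6 and 59.7 CPM in WT and at 55.8, 70.8 and 41.2 CPM in CTCF0. The CTCF0 libraries enclosed the WT range (log2 fold change 0.05 ± 0.23 SE, interval -0.47 to 0.57). In the other experiment E(spl)mbeta-HLH was at 61.5, 75.5 and 100.7 CPM in WT and at 71.3, 61.1 and 57.6 CPM in the libraries labelled Cp190KO. The high value of WT replicate 3 set the means apart while the groups overlapped (log2 fold change -0.32 ± 0.20 SE, interval -0.80 to 0.15).

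E(spl)m3-HLH was measured at 31.4, 24.1 and 30.2 CPM in WT and at 26.2, 35.2 and 21.3 CPM in CTCF0, a wider and overlapping range (log2 fold change -0.05 ± 0.22 SE). Values in the second control were 33.9, 21.8 and 23.0 CPM, beside 15.5, 24.3 and 24.0 CPM in the libraries labelled Cp190KO. Only replicate 1 of the mutant lay below the WT range, and the log2 fold change was -0.30 ± 0.27 (SE).

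E(spl)m7-HLH was at 30.9, 26.5 and 24.2 CPM in WT and at 27.5, 25.4 and 24.9 CPM in CTCF0, where all mutant libraries lay within the WT range (log2 fold change -0.07 ± 0.17 SE, interval -0.45 to 0.31). E(spl)m7-HLH was at 20.4, 14.8 and 20.6 CPM in the second control and at 17.2, 12.6 and 14.3 CPM in the libraries labelled Cp190KO. Replicates 2 and 3 of the mutant were below all WT libraries and replicate 1 was not (log2 fold change -0.34 ± 0.24 SE, interval -0.89 to 0.21).

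E(spl)m8-HLH, the gene of the Enhancer of split mutation that gave the complex its name, was at 16.6, 14.04 and 14.5 CPM in WT and at 13.9, 13.4 and 10.6 CPM in CTCF0. All CTCF0 libraries lay below all WT libraries, the closest by a narrow margin. Its log2 fold change was -0.25 ± 0.20 (SE, interval -0.70 to 0.20, edgeR adjusted p = 0.76). The other experiment had it at 11.4, 12.1 and 16.6 CPM in WT and at 16.7, 13.04 and 11.2 CPM in the libraries labelled Cp190KO, which covered the same range (log2 fold change 0.03 ± 0.26 SE).

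E(spl)m5-HLH was measured at 8.80, 8.01 and 8.33 CPM in WT and at 6.67, 5.45 and 7.04 CPM in CTCF0. In the other experiment it was at 8.66, 8.87 and 6.97 CPM in WT and at 6.66, 5.27 and 5.64 CPM in the libraries labelled Cp190KO. All mutant libraries were below all WT libraries of the same experiment in both cases, with 77 to 176 counts per library. The log2 fold changes were -0.39 ± 0.21 (SE, interval -0.86 to 0.08, edgeR adjusted p = 0.54) and -0.48 ± 0.25 (SE, interval -1.06 to 0.10, edgeR adjusted p = 0.50). Leaving out any 1 library kept them between -0.46 and -0.33 in CTCF0 and between -0.58 and -0.41 in the libraries labelled Cp190KO, with -0.44 without replicate 3 of the latter.

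Mutant and WT libraries did not overlap for 2 of the 10 genes in CTCF0, E(spl)m5-HLH and m8-HLH, and for 2 of the 10 in the libraries labelled Cp190KO, Ser and E(spl)m5-HLH. Among all genes tested they did not overlap for 17.4% and 19.8%. E(spl)m5-HLH, below WT in both, was 1 of 168 such genes among the 8463 tested in both comparisons, or 1.99%.

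The intervals show which changes the libraries could have missed. In CTCF0, the 95% interval lay within a 1.5-fold change in either direction for 4 of 10 genes, namely E(spl)mgamma-HLH, mbeta-HLH, m3-HLH and m7-HLH. For the other 6 in CTCF0, and for all 10 in the libraries labelled Cp190KO, the interval reached past a 1.5-fold change. Interval widths on the log2 scale were 0.71 to 1.63 in CTCF0 and 0.94 to 2.23 in the libraries labelled Cp190KO.

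**Figure D3:**
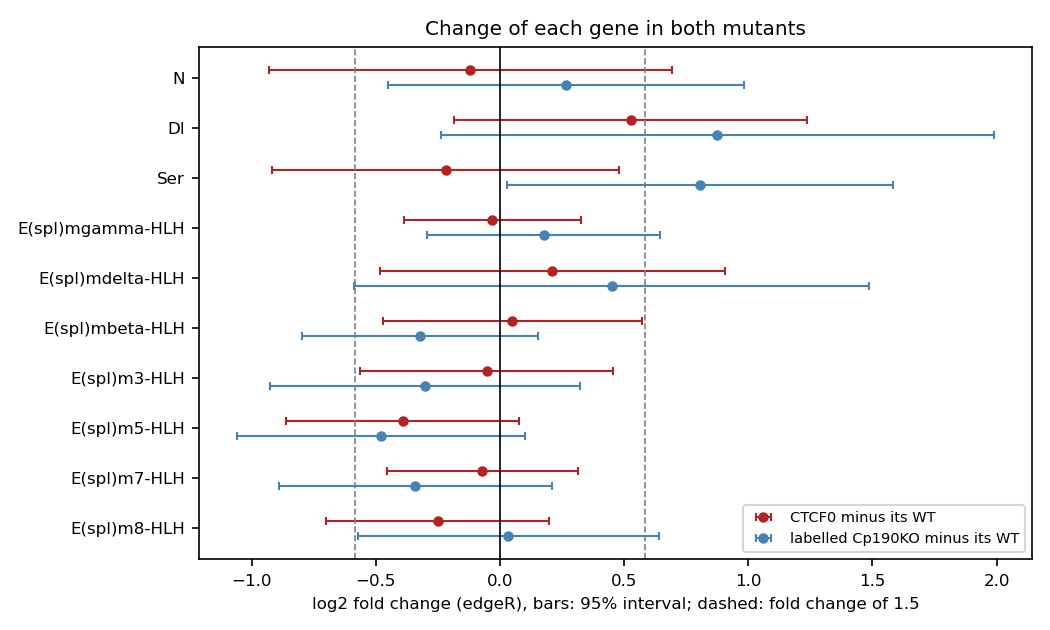
Log2 fold change of each gene in CTCF0 (red) and in libraries labelled Cp190KO (blue) against their own WT control, from edgeR fits of 6 libraries each. Bars are 95% intervals, and dashed lines mark a fold change of 1.5. The interval of Ser in the libraries labelled Cp190KO, from 0.03 to 1.58, is the only one of the 20 that does not cross 0.

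The change in CTCF0 was set against the change in the libraries labelled Cp190KO in a fit of all 12 libraries. By edgeR, 0 of 10 genes differed at an adjusted p under 0.05, where 1.42% of 8954 genes did. At an unadjusted p under 0.05 there was 1, Ser, against 6.89% of all genes, and DESeq2 gave 0. For Ser the difference of log2 fold changes, CTCF0 minus Cp190KO, was -1.04 ± 0.47 (SE, interval -2.05 to -0.02, edgeR adjusted p = 0.70). For Dl it was -0.35 (interval -1.61 to 0.91) and for N -0.38 (interval -1.47 to 0.70). The bHLH genes had differences between -0.27 for E(spl)m8-HLH and 0.38 for E(spl)mbeta-HLH, with a median of 0.09 beside a median of -0.05 over all genes. E(spl)m5-HLH differed by 0.09 (interval -0.57 to 0.74).

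The E(spl) complex also holds genes of the Bearded family, which inhibit the ubiquitin ligase Neuralized, E(spl)m1 and gro, which encodes Groucho. Of the 6 other genes of the complex on the list, 5 were tested, and edgeR called 0 in either mutant (unadjusted p under 0.05 for 0 in each, DESeq2 0 in each). The shares over all genes tested were 2.81% and 2.41% for calls by edgeR and 12.1% and 13.1% for the unadjusted p. The median log2 fold change of the 5 genes was -0.20 in CTCF0 and -0.19 in the libraries labelled Cp190KO. E(spl)m1, listed in the annotation as Kaz-m1, reached at most 2 counts in any library and was not tested.

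The level of gro scattered as N did, with 218.8, 400.6 and 323.1 CPM in WT and 248.6, 178.0 and 282.8 CPM in CTCF0. Groups overlapped, and the lowest library was CTCF0 replicate 2 (log2 fold change -0.41 ± 0.26 SE, edgeR adjusted p = 0.66). Like N, gro was lower in the second control, at 31.4% of the first, with each control scaled within its own experiment. E(spl)malpha-BFM, a Bearded family gene in the middle of the complex, was at 9.42, 10.9 and 9.12 CPM in WT and at 8.62, 5.67 and 9.29 CPM in CTCF0. In the Cp190KO experiment it was at 8.51, 8.996 and 8.05 CPM in WT and at 7.79, 5.51 and 4.87 CPM in the libraries labelled Cp190KO. There all mutant libraries were below WT, with a log2 fold change of -0.49 ± 0.27 (SE, edgeR adjusted p = 0.53).

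The genes at the borders of the complex were not called either. Exo84, an exocyst gene whose end overlaps the end of gro on the opposite strand, had a log2 fold change of 0.03 in CTCF0 and -0.24 in the libraries labelled Cp190KO. CG43116, to the left of E(spl)mdelta-HLH, had at most 6 counts in any library and was not tested. Neighbours within the complex could differ widely in level, as E(spl)mdelta-HLH had 3.45 CPM per kb in the first control and the adjacent E(spl)mgamma-HLH 37.5 CPM per kb.

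**Figure D4:**
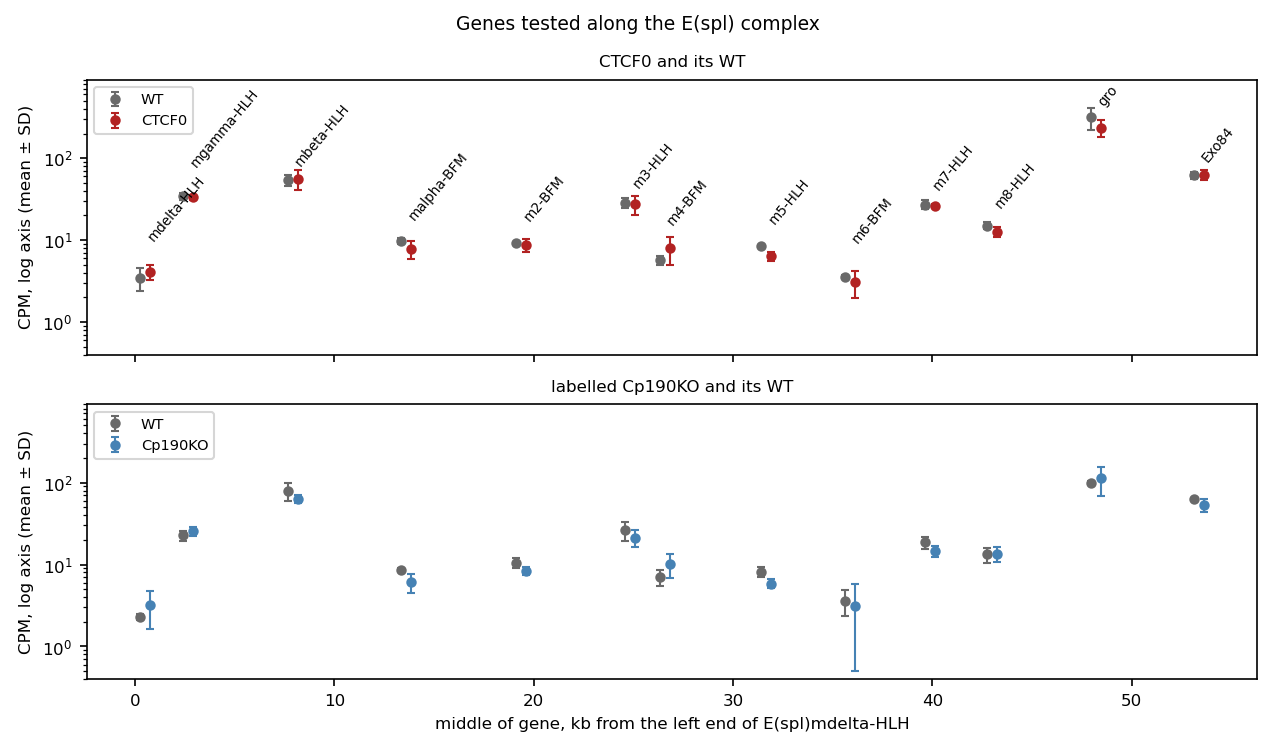
Mean level (CPM, log axis) of the genes tested along the E(spl) complex and of Exo84, with bars of 1 SD over 3 libraries, against the distance of the gene's middle from the left end of E(spl)mdelta-HLH in kb. WT is grey and drawn slightly to the left, CTCF0 red (upper plot) and the libraries labelled Cp190KO blue (lower plot), both slightly to the right. The mutant means of E(spl)m5-HLH, 6.39 and 5.86 CPM, lie below the WT means of 8.38 and 8.17 CPM.

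The pathway around these genes was described with 48 other genes in 8 lists, of which 45 were tested. By edgeR, 0 of 45 were called in CTCF0, in the libraries labelled Cp190KO or in the difference between them. Of all genes tested, 2.81%, 2.41% and 1.42% were called. At an unadjusted p under 0.05 there were 3, 3 and 0 of the 45, against 12.1%, 13.1% and 6.89% of all genes tested. DESeq2 called 1, 0 and 0 of the 45. Their median log2 fold change was -0.03 in CTCF0 and 0.22 in the libraries labelled Cp190KO. Mutant libraries lay above WT for 1 and below WT for 4 of the 45 in CTCF0, and for 2 and 4 in the libraries labelled Cp190KO, where 17.4% and 19.8% of all genes did not overlap in either direction.

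Among genes of receptor maturation and proteolysis, pen-2 came closest to a call. It encodes a subunit of gamma-secretase, the protease that releases the intracellular part of Notch. Its level was 37.4, 47.8 and 51.8 CPM in WT and 28.2, 24.4 and 23.8 CPM in CTCF0. All CTCF0 libraries were below all WT libraries, and the log2 fold change was -0.84 ± 0.18 (SE) with an edgeR adjusted p of 0.0502. The gene was called with RLE scaling (0.043), with DESeq2 (0.0027), without the filter on low counts (0.029), in the fit of all 12 libraries (0.029) and without CTCF0 replicate 2 (0.024). These values are adjusted p-values. Of its exons, 47.8% overlap sbb on the opposite strand, and the strand option of the counting is not given in the sources used here.

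In the Cp190KO experiment pen-2 was at 26.8, 28.8 and 24.9 CPM in WT and at 18.4, 23.6 and 25.5 CPM in the libraries labelled Cp190KO, which overlapped (log2 fold change -0.25 ± 0.20 SE). The difference between the mutants was -0.59 ± 0.27 (SE, edgeR adjusted p = 0.72). Psn, the catalytic subunit Presenilin, was at 333.9, 390.3 and 336.6 CPM in WT and at 310.7, 279.7 and 276.3 CPM in the libraries labelled Cp190KO. These were all below WT, with a log2 fold change of -0.29 ± 0.12 (SE, edgeR adjusted p = 0.35). In CTCF0 the log2 fold change of Psn was also -0.29, with overlapping libraries.

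Hey, a bHLH repressor gene that responds to Notch in newborn neurons, was measured at 21.6, 21.2 and 20.7 CPM in WT and at 15.04, 17.6 and 16.4 CPM in CTCF0. In the other experiment it was at 30.2, 35.1 and 25.6 CPM in WT and at 20.0, 23.3 and 20.3 CPM in the libraries labelled Cp190KO. As for E(spl)m5-HLH, all mutant libraries were below WT in both experiments. The log2 fold changes were -0.37 ± 0.17 (SE, edgeR adjusted p = 0.44) and -0.51 ± 0.20 (SE, edgeR adjusted p = 0.32). Of the other Notch-responsive genes, dpn, which encodes the neuroblast Hes protein Deadpan, had log2 fold changes of -0.02 ± 0.23 (SE) and 0.30 ± 0.62 (SE), but 59.3% of its exons overlap an antisense RNA.

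Proneural genes are held down by E(spl) proteins, and 0 of the 5 tested were called by edgeR in either mutant (unadjusted p under 0.05 for 1, sc, in each, DESeq2 0 in each). Among all genes tested, 2.81% and 2.41% were called by edgeR, and 12.1% and 13.1% had such an unadjusted p. The gene sc (scute) was at 1.02, 1.21 and 1.07 CPM in WT and at 1.84, 1.35 and 2.10 CPM in CTCF0. In the other experiment sc was at 0.886, 0.739 and 0.393 CPM in WT and at 1.08, 1.56 and 1.94 CPM in the libraries labelled Cp190KO. All mutant libraries were above WT in both, as for 2.45% of the genes tested in both, at levels near the filter on low counts. The log2 fold changes of sc were 0.69 ± 0.30 (SE, edgeR adjusted p = 0.40) and 1.17 ± 0.45 (SE, edgeR adjusted p = 0.33).

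The genes of smallest p in the other lists follow, with their log2 fold changes. In CTCF0 these were Brd, which encodes Bearded, with 0.53 ± 0.28 (SE), mam, the co-activator Mastermind, with -0.33 ± 0.29 (SE), lqf, the epsin needed in cells that send the signal, with -0.34 ± 0.22 (SE), and Su(dx), a ubiquitin ligase of Notch trafficking, with 0.30 ± 0.23 (SE). In the libraries labelled Cp190KO they were Ocho, another Bearded family gene, with 0.22 ± 0.31 (SE), CtBP, a co-repressor, with 0.28 ± 0.27 (SE), mib1, a ubiquitin ligase for the ligands, with -0.20 ± 0.12 (SE), and Su(dx) with 0.40 ± 0.18 (SE). Their edgeR adjusted p-values were 0.42 or higher. Su(H), the DNA-binding protein of the pathway, had log2 fold changes of 0.02 ± 0.30 (SE) and 0.28 ± 0.39 (SE).

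**Figure D5:**
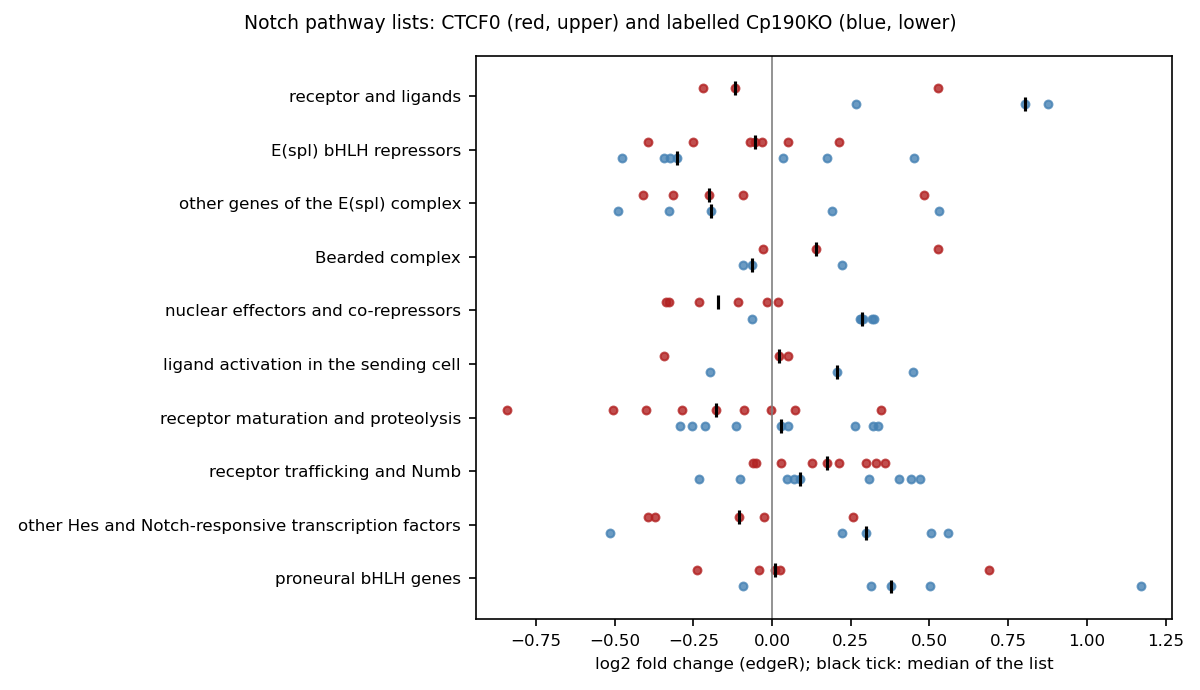
Log2 fold change of each tested gene in 10 lists of the Notch pathway, with CTCF0 in red above and the libraries labelled Cp190KO in blue below, and black ticks at list medians. The lowest point is pen-2 in CTCF0 at -0.84 and the highest is sc in libraries labelled Cp190KO at 1.17, and 0 of the points is a call by edgeR.

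The genes were also compared by how they varied over the 12 libraries, after the mean of each experiment was subtracted from log2 CPM. Such correlations describe 12 libraries that differ in depth, genotype and the scatter with gene length, and the part of each was not tested. N and Dl had the highest correlation of any pair among the 10 (r = 0.756, n = 12), and N and E(spl)m3-HLH the lowest (r = -0.659, n = 12). Among the bHLH genes, E(spl)mbeta-HLH and m8-HLH were most alike (r = 0.644, n = 12). Outside the 10, the genes whose pattern was most like that of N were CG12290 (r = 0.988), pum (r = 0.972) and CG11180 (r = 0.970) of 8953 genes. For the mean of the 7 bHLH genes, they were CG1688 (r = 0.880), eve (r = 0.816), CCKLR-17D3 (r = 0.801), CG11382 (r = 0.789) and CG4408 (r = 0.778) of 8947 genes. As the highest values picked from so many genes over 12 libraries, these correlations were not tested against chance.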

How the data were processed

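Reads were mapped by the authors with Micmap to dm6 and to FlyBase gene models and counted per gene with HTSeq 0.9.1. The deposited values are whole-number counts of 17510 genes, with no normalization, in 12 libraries. Rows of the files that name no gene were left out, and they include reads on no feature (5.49 to 15.7%) and ambiguous reads (4.09 to 5.46%). These shares are of gene, no-feature and ambiguous counts together. Each mutant was fitted with its own WT control, 3 libraries against 3, by the quasi-likelihood test of edgeR 4.0.16 (R 4.3.3, TMM scaling, robust spread) on genes that reached 1 CPM in 3 or more libraries. P-values were adjusted by Benjamini-Hochberg over all genes tested, and called genes had an adjusted p under 0.05 and a fold change over 1.5. The difference of changes came from all 12 libraries and needed only the adjusted p. The SE is the log2 fold change divided by the square root of the F statistic. Alternatives were RLE scaling, DESeq2 1.42.0, no filter, a replicate block, 1 fit of 12 libraries, no fold threshold and each library left out. The paper calls the libraries biological triplicates, and the sample titles give a replicate number. The fit was tested on simulated data with known changes for CTCF0, Cp190KO and the difference between them. It recovered 34%, 28% and 16% of 2-fold changes and 98%, 90% and 57% of 4-fold changes. Unchanged genes made up 7.04%, 9.92% and 9.88% of the calls. Positions and exon lengths came from Ensembl models on dm6, in which 17405 genes were found. Python 3.11.15 and pandas 2.3.3 made the summaries. The 10 genes and all lists were chosen with earlier results of these data known. Apart from the 10 genes, those named were the gene of smallest p in each pathway list for each mutant, the genes most alike in pattern, the targeted genes and the neighbours of the complex. E(spl)m1, dpn, Su(H), Akh and the glial, neuron and ring gland markers named were added after their values were seen. Depth limits low genes first, and a count of 3 was 0.139 to 0.257 CPM.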

Additional observations from a re-analysis of the deposited data

How the results depend on the processing

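The calls of the 10 genes kept their side of the threshold in 380 of 380 results over the alternative settings that refitted the counts. By edgeR or DESeq2, 0 of 10 were called in each of the 18 alternative settings, which include the one without a fold threshold. Of the other pathway genes, 1 (pen-2) was called in CTCF0 with RLE scaling, DESeq2, no filter and all 12 libraries in one fit, and 0 to 1 with a library left out. Over all genes, the 245 calls in CTCF0 became 392 with DESeq2 and 382 with no filter, and 90 to 556 with a library left out. The 207 calls in the libraries labelled Cp190KO became 440 with DESeq2, 366 in the fit of all 12 libraries and 24 to 318 with a library left out. The 127 differences between mutants became 213 with DESeq2 and 69 to 141 with a library left out. The cause was not tested. With a library left out, the median log2 fold change of the 7 bHLH genes ranged from -0.19 to 0.018 in CTCF0, from -0.38 to -0.076 in the libraries labelled Cp190KO and from 0.01 to 0.18 for the difference.

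With the replicate number as a block, calls over all genes were 145 in CTCF0, 89 in the libraries labelled Cp190KO and 60 for the difference. Deviations of same-numbered libraries correlated with r = -0.16, -0.49 and -0.45 in the CTCF0 experiment and 0.04, 0.47 and -0.01 in the Cp190KO experiment. Whether the numbers pair the samples cannot be decided from these values, as scatter between single libraries also enters them. Not every library correlated best with its own number. E(spl)mdelta-HLH had 25 to 84 counts per library, and the part of low counts in the width of its intervals was not tested.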
